A study of Saccharomyces cerevisiae W303 with 3 samples.

Results

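The genes described here encode the machinery that holds sister chromatids together, compacts them and controls their separation in budding yeast: cohesin and its regulators, condensin, securin and separase, the chromosomal passenger complex, a spindle motor and the spindle checkpoint. The group was listed by gene name, and it was chosen with earlier results of these data known. Its 36 members were found among the 6252 genes used on the arrays. Of these, 35 were matched by the gene name of the probe and 1, SGO1, by its open reading frame, YOR073W. For 33 of the 36 the signal was high enough to test; SCC2, MRC1 and BRN1 were too dim.

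The question put to these arrays was which transcripts differ between an early and a late stage of growth under constant conditions. The strain was W303 of Saccharomyces cerevisiae, a haploid described as MATa with ade2-1, can1-100, his3-11,15, trp1-1, ura3-1 and a mutant leu2 allele, and all samples share these alleles. The 3 cultures were independent, each was started from a single colony, and each was grown continuously at 30 °C in minimal medium with glycerol as the main carbon source, a little glucose and yeast extract, and ampicillin and streptomycin. RNA taken from a culture at 40 generations and at 240 generations was hybridized together on 2 two-color arrays with the dyes exchanged, which gives 6 arrays and 3 biological replicates (Replicates 1 to 3). A late sample is a mixed population of descendants of 1 colony, and the late populations are described as carrying mutations that differ between cultures, in HOG1 and MSY1 in the first, in HOG1 and URE2 in the second and in MSY1 in the third.

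Cohesin is a ring closed by the ATPases Smc1 and Smc3 and the kleisin Mcd1, which embraces both sister chromatids from S phase until anaphase. The ring is loaded by Scc2 and Scc4, made cohesive at the replication fork when Eco1 acetylates Smc3, and opened when separase (Esp1), freed from securin (Pds1), cuts Mcd1. Securin is destroyed by the anaphase-promoting complex with its activator Cdc20, which the spindle checkpoint proteins Mad and Bub hold back until every kinetochore is attached, and condensin, a related ring built on Smc2 and Smc4, compacts and untangles the chromatids. In budding yeast many of these genes, the ring subunits among them, are transcribed in waves of the cell cycle, with MCD1 in late G1 and CDC20 in G2 and M.

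A log2 ratio here is that of the signal at 240 over the signal at 40 generations, so that a positive value means more RNA of that gene, relative to the other RNAs, in the late sample. Across all 5504 genes tested the median was -0.01, with quartiles of -0.30 and 0.27. The dye-swap arrays of a culture gave r = 0.963, 0.954 and 0.953 across genes. Between cultures r was 0.711 for Replicates 1 and 2, 0.659 for Replicates 1 and 3 and 0.879 for Replicates 2 and 3; genes are not independent replicates in any of these. Genes above background made up 84.2% to 91.8% of each array at 40 generations and 85.3% to 89.4% at 240 generations. The mating-type markers did not match the label: of the 6 a-specific genes, MFA2 and AGA2 were above background on no array at either time point, MFA1, BAR1 and STE2 on 4 arrays or fewer, and STE6 alone on all 6. All 4 alpha-specific genes were above background on all 6 arrays at both time points, and 3 of them were higher at 240 generations (on the log2 scale MF(ALPHA)2 by 2.46 ± 0.75, SAG1 by 1.42 ± 0.80 and STE3 by 0.78 ± 0.41, SD, n = 3, with adjusted p of 0.0051, 0.022 and 0.027). Without Replicate 2 or without pairing 1 of the 4 passed, and without Replicate 3, 2 did. Their part in the values of the members was not tested.

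In the late samples 15 of the 33 members tested were higher and none was lower, at an adjusted p under 0.05 over all genes tested (limma). Among all genes, 14% were higher and 13.7% lower by the same rule. At an unadjusted p under 0.05 the counts were 21 higher and again 0 lower. Of all 5504 genes tested, 1164 were higher and 1228 lower by that unadjusted rule. The 15 include IPL1, which met the filter on dim probes only through its late signal, and 13 were higher when signal at both time points was required on all arrays. The members called higher were the 4 ring subunits, CTF4, CSM3 and TOF1 of the replication fork, PDS1, ESP1, SGO1 and IPL1 of anaphase control, the motor subunit CIK1, the checkpoint kinase BUB1, and SMC2 and YCG1 of condensin. In RNA pooled from a whole culture, more transcript per cell and more cells in the stage that makes the transcript cannot be told apart.

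**Figure D1:**
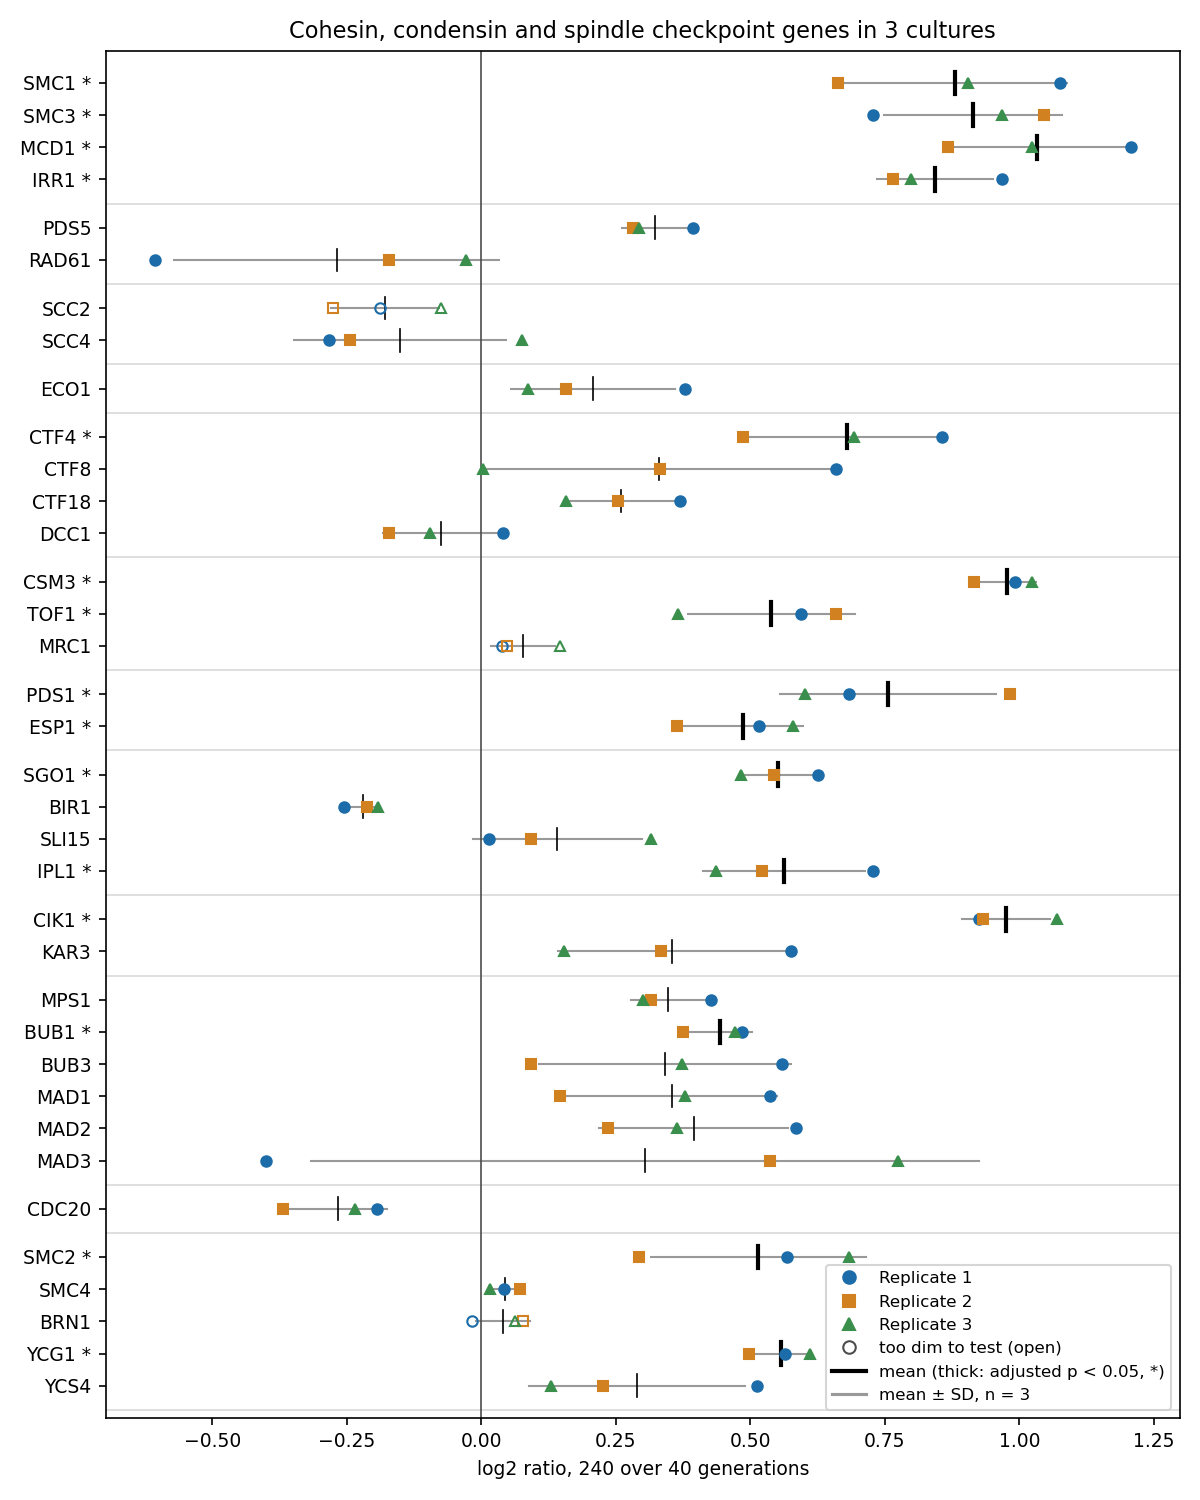
Log2 ratio of each of the 36 members (240 over 40 generations, horizontal axis) in each culture, with its mean and SD (n = 3); genes are grouped by role from the cohesin ring at the top to condensin at the bottom, stars mark an adjusted p under 0.05 and open symbols genes too dim to test. The means of the 4 ring genes, CSM3 and CIK1 lie farthest to the right. These genes and PDS1 are above 0.60 in all 3 cultures, while MAD3 has the widest spread.

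The median of the 33 mean log2 ratios was 0.35, with quartiles of 0.26 and 0.56. By culture the median was 0.56 in Replicate 1, 0.33 in Replicate 2 and 0.37 in Replicate 3, against -0.02, 0.00 and 0.00 over all genes. Means were above 0 for 28 members, against 2679 of the 5504 genes tested. The ratio was positive in all 3 cultures for 27 members, where 31% of all genes were, and on all 6 arrays for 23, where 25.9% of all genes were. Negative values in all 3 cultures were seen for 3 members tested, RAD61, BIR1 and CDC20, and for 1807 of the 5504 genes tested. Means of the members tested spanned -0.27 to 1.03 and those of all genes -4.37 to 5.21. A range widens with the number of genes, so the 2 ranges cannot be compared directly. The mean of each dye orientation lay within 0.13 of the member's mean over both orientations, and no spot of a member was saturated.

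**Figure D2:**
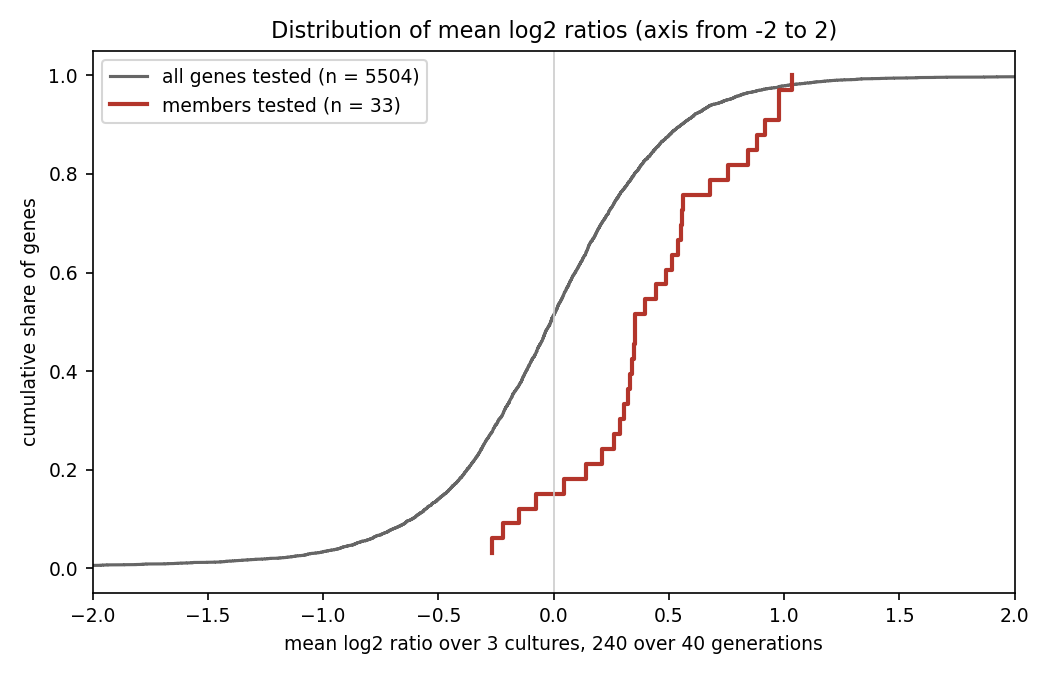
Cumulative share of genes (vertical axis) by mean log2 ratio over 3 cultures (240 over 40 generations, horizontal axis) for the 33 members tested and for all 5504 genes tested. The curve of the members lies to the right over most of its length and stops at 1.03, with a median of 0.35 against -0.01.

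How many members passed depended on which cultures were used. With Replicates 2 and 3 alone 17 members were higher, where 22.4% of all genes were; with Replicates 1 and 3 alone 4 were (2.23% of all genes), and with Replicates 1 and 2 alone 7 were (5.36%). The 4 that passed without Replicate 2 were SMC1, MCD1, CSM3 and CIK1. Treating the early and late samples as unpaired left 5 (SMC3, MCD1, IRR1, CSM3 and CIK1, with 3.42% of all genes). In each of these fits all 15 genes had a positive value.

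All 4 genes of the cohesin ring were higher, with means of 0.84 to 1.03. The signal of MCD1, the subunit that separase cleaves, rose from 7.96, 8.05 and 8.17 (normalized log2 signal in Replicates 1, 2 and 3) at 40 generations to 9.17, 8.91 and 9.20 at 240 generations. All late values thus lay above all early ones, and the log2 ratios were 1.21, 0.87 and 1.02 (mean 1.03 ± 0.17, SD, n = 3, 2.05-fold, adjusted p = 0.0054). SMC3, the ATPase whose acetylation locks the ring, had levels of 8.44, 8.35 and 8.30 at 40 generations and of 9.17, 9.39 and 9.27 at 240. Its 2 groups of levels did not overlap either, and the mean was 0.91 ± 0.17 (1.88-fold, adjusted p = 0.0075).

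For SMC1, the partner ATPase, the levels went from 11.03, 10.87 and 11.44 to 12.11, 11.53 and 12.34, a mean ratio of 0.88 ± 0.21 (1.84-fold, adjusted p = 0.0094). IRR1, also called SCC3, codes for the subunit that binds the kleisin on the outside of the ring; its levels were 8.66, 8.59 and 8.45 early and 9.63, 9.35 and 9.24 late (0.84 ± 0.11, 1.79-fold, adjusted p = 0.0077). Neither gene had any early value within its late range. The cultures also differed in their level of SMC1, which was 11.53 in Replicate 2 at 240 generations and already 11.44 in Replicate 3 at 40. The ring genes ranked 104 (MCD1), 153 (SMC3), 173 (SMC1) and 194 (IRR1) from the top of the 5504 genes. Without Replicate 2, SMC3 and IRR1 no longer passed (adjusted p = 0.065 and 0.059), and without pairing SMC1 did not (0.068).

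**Figure D3:**
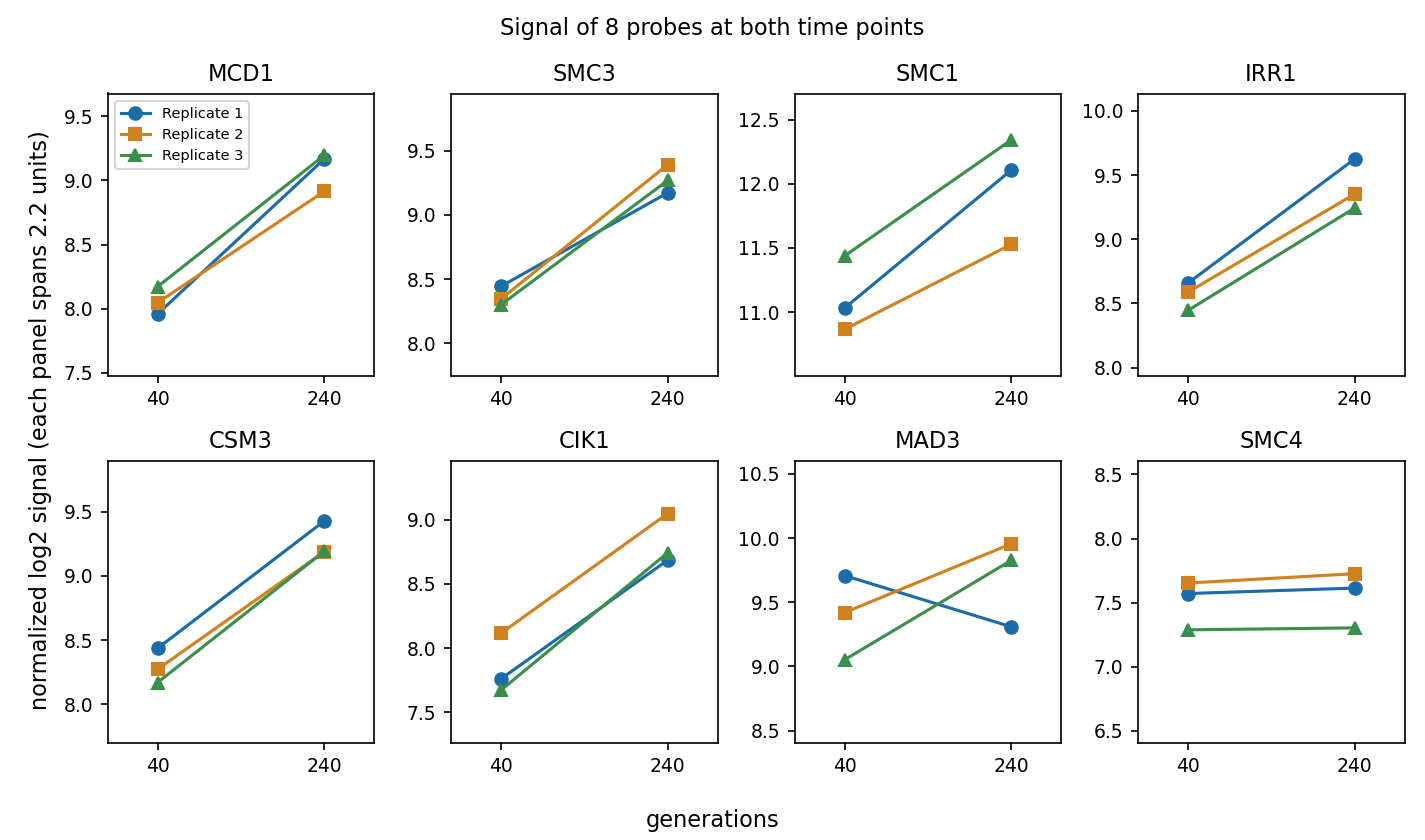
Normalized log2 signal of 8 member probes (vertical axis, each panel 2.2 units high) at 40 and 240 generations (horizontal axis), 1 line per culture. In the panels of MCD1, SMC3, SMC1, IRR1, CSM3 and CIK1 every late value lies above every early one; MAD3 was lower at 240 generations in Replicate 1 alone, at 9.31 against 9.71, and SMC4 moved by 0.07 or less.

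The genes of cohesin maintenance and release, loading and acetylation did not pass or could not be tested. PDS5, which helps to keep cohesin on chromosomes and also to release it, had log2 ratios of 0.39, 0.28 and 0.29 (0.32 ± 0.06, adjusted p = 0.072). Its levels, 7.63 to 7.77 early and 7.93 to 8.16 late, did not overlap. RAD61, the yeast counterpart of the cohesin release factor Wapl, gave -0.61, -0.17 and -0.03 (-0.27 ± 0.30, adjusted p = 0.21), so that Replicate 1 accounted for most of its mean. For SCC4 of the loader the values were -0.28, -0.24 and 0.08 (-0.15 ± 0.20, adjusted p = 0.39). SCC2, the other loader subunit, was above background on 2 arrays at 40 generations and on none at 240 and was not tested. ECO1, the acetyltransferase that establishes cohesion, had 0.38, 0.16 and 0.09 (0.21 ± 0.15, adjusted p = 0.22). With the authors' log2 ratios ECO1 passed as higher. For these genes the 95% interval of the mean reached from -0.63 to 0.09 for RAD61, from -0.46 to 0.16 for SCC4 and from -0.08 to 0.50 for ECO1. The interval of PDS5 reached from 0.06 to 0.59. It overlapped that of IRR1, the ring gene with the lowest mean (0.84), which reached from 0.57 to 1.12. The difference between the ring genes and the genes of maintenance and release, loading and acetylation was not tested.

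Of the 6 tested genes that couple cohesion to replication, CSM3, TOF1 and CTF4 were higher, where 14% of all genes were. The means of the 6 ran from -0.08 to 0.98. CSM3 encodes a subunit of the fork protection complex, which steadies paused forks and is needed for full cohesion. Its levels were 8.44, 8.27 and 8.17 at 40 generations and 9.43, 9.19 and 9.19 at 240, and the ratios of 0.99, 0.92 and 1.02 were among the least variable of the members (0.98 ± 0.06, 1.97-fold, adjusted p = 0.0049). Early and late values were separated in CSM3 by more than 0.70. Its partner TOF1 had ratios of 0.59, 0.66 and 0.36 (0.54 ± 0.15, adjusted p = 0.025), with levels of 7.66 to 7.81 early and 8.03 to 8.41 late. MRC1, a checkpoint mediator that travels with both, was above background on 2 arrays only at each time point and was not tested.

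CTF4 links the replicative helicase to DNA polymerase alpha, and its levels were 10.46, 10.41 and 10.10 at 40 and 11.32, 10.89 and 10.80 at 240 generations (0.68 ± 0.19, 1.60-fold, adjusted p = 0.016). The late levels again lay above all early ones. CTF8, CTF18 and DCC1 form, with the small subunits of replication factor C, an alternative clamp loader needed for cohesion, and none of them passed. CTF8 had 0.66, 0.33 and 0.00 (0.33 ± 0.33, adjusted p = 0.15), CTF18 gave 0.26 ± 0.11 (adjusted p = 0.13) and DCC1 -0.08 ± 0.11 (adjusted p = 0.63). CTF18 entered the test only through its late signal, since it was above background on 2 arrays at 40 and on 4 at 240 generations. Without Replicate 2, without Replicate 3 or without pairing, CTF4 and TOF1 no longer passed (adjusted p at most 0.076 and 0.185 over all settings). CSM3 passed in all 19 alternative settings.

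PDS1 and ESP1, the securin and separase genes, were both higher. PDS1, whose product keeps separase inactive, had levels of 7.53, 7.76 and 7.47 at 40 generations and of 8.22, 8.74 and 8.07 at 240. The ratios were 0.68, 0.98 and 0.60 (0.76 ± 0.20, 1.69-fold, adjusted p = 0.013), highest in Replicate 2. ESP1, whose product opens the ring, gave 0.52, 0.36 and 0.58 (0.49 ± 0.11, 1.40-fold, adjusted p = 0.029), and its levels moved from 9.56 to 10.04 early to 10.13 to 10.56 late. Neither gene's groups overlapped. Both calls were lost without Replicate 2 and without pairing, with adjusted p of at most 0.103 for PDS1 and 0.169 for ESP1, and that of ESP1 also without Replicate 3. CDC20, whose product turns the anaphase-promoting complex on securin, stood on the other side of 0 in every culture, at -0.19, -0.37 and -0.24 (-0.27 ± 0.09). It did not pass (adjusted p = 0.12), and its 95% interval ran from -0.54 to 0.00. Its early levels, 9.20 to 10.18, and late levels, 8.97 to 9.81, overlapped because Replicate 2 was brighter at both time points.

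At the centromere, SGO1 codes for shugoshin, a sensor of tension between sister kinetochores. It had ratios of 0.63, 0.54 and 0.48 (0.55 ± 0.07, 1.46-fold, adjusted p = 0.019) and levels of 7.03 to 7.31 early against 7.51 to 7.85 late. IPL1 is the Aurora kinase of the chromosomal passenger complex, which frees wrongly attached kinetochores; its ratios were 0.73, 0.52 and 0.44 (0.56 ± 0.15). Both probes were dim at 40 generations, where SGO1 was above background on 4 arrays and IPL1 on 3, so that IPL1 entered the test only because of its late signal (5 arrays) and its values are a description. The other passenger subunits gave different values. SLI15, which activates the kinase, had 0.01, 0.09 and 0.32 (0.14 ± 0.16, adjusted p = 0.39), and BIR1, the survivin homolog, had -0.25, -0.21 and -0.19 (-0.22 ± 0.03, adjusted p = 0.16). BIR1 was the only member whose late levels, 9.06 to 9.16, all lay below its early ones, 9.25 to 9.41, as did those of 17% of all genes. SGO1 did not pass when Replicate 2 or Replicate 3 was left out or the time points were unpaired (adjusted p of at most 0.137).

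CIK1 and KAR3 encode the subunits of a kinesin-14, a minus-end motor that crosslinks spindle microtubules and also serves nuclear fusion in mating. CIK1, the noncatalytic subunit, had levels of 7.76, 8.12 and 7.67 at 40 and of 8.69, 9.05 and 8.74 at 240 generations. Its ratios of 0.93, 0.93 and 1.07 gave 0.98 ± 0.08 (1.97-fold, adjusted p = 0.0050), and the call was kept in all 19 alternative settings. KAR3, the motor itself, had 0.58, 0.33 and 0.15 (0.35 ± 0.21, adjusted p = 0.088), with overlapping levels. With the authors' log2 ratios KAR3 passed as higher. CIK1 had the higher ratio of the pair in each culture, a difference that was not tested. VIK1, the alternative partner of KAR3, gave 0.46 ± 0.26 (adjusted p = 0.057).

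Of the 6 checkpoint genes 1 passed as higher (16.7%), where 14% of all genes did. The mean of each was above 0 and lay between 0.30 and 0.44. BUB1, a kinase that builds the checkpoint at kinetochores, had ratios of 0.48, 0.38 and 0.47 (0.44 ± 0.06, 1.36-fold, adjusted p = 0.032). Its levels at 40 generations were 7.38, 7.07 and 7.43 and at 240 generations 7.87, 7.45 and 7.90, which do not overlap. The distance was small, since the lowest late value, in Replicate 2, was 7.45 and the highest early value 7.43. MPS1, the kinase that starts the signal, gave 0.43, 0.32 and 0.30 (adjusted p = 0.061). MAD2, the protein that binds Cdc20, gave 0.58, 0.24 and 0.36 (adjusted p = 0.060), and MAD1, its anchor, 0.54, 0.15 and 0.38 (adjusted p = 0.083). In BUB3, which brings Bub1 to the kinetochore, the ratios were 0.56, 0.09 and 0.37 (adjusted p = 0.10). In all 5 of these genes Replicate 1 had the highest ratio, and in BUB1, BUB3, MAD1 and MAD2 Replicate 2 had the lowest.

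MAD3, a further inhibitor of Cdc20, behaved differently in 1 culture. Its level went from 9.71 to 9.31 in Replicate 1, from 9.42 to 9.96 in Replicate 2 and from 9.05 to 9.83 in Replicate 3, so that the ratios were -0.40, 0.54 and 0.77. The SD of 0.62 was the largest of the members, and the mean of 0.30 did not pass (adjusted p = 0.36). With Replicates 2 and 3 alone MAD3 and MPS1 passed as well. BUB1 did not pass without Replicate 2, without Replicate 3 or without pairing (adjusted p of at most 0.198).

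Of the 4 condensin genes tested, SMC2 and YCG1 were higher (50%, against 14% of all genes). SMC2, 1 of the ATPases, had levels of 11.04, 11.30 and 10.88 at 40 generations and of 11.61, 11.59 and 11.57 at 240, which did not overlap. Its ratios were 0.57, 0.29 and 0.68 (0.51 ± 0.20, 1.43-fold, adjusted p = 0.033). YCG1, a HEAT-repeat subunit that grips DNA, had 8.69, 8.21 and 8.58 early and 9.25, 8.71 and 9.19 late, with ratios of 0.56, 0.50 and 0.61 (0.56 ± 0.06, 1.47-fold, adjusted p = 0.018). The partner ATPase gene SMC4 gave 0.04, 0.07 and 0.02 (0.04 ± 0.03, adjusted p = 0.78), with a 95% interval from -0.22 to 0.30. YCS4, the second HEAT-repeat subunit, gave 0.51, 0.23 and 0.13 (0.29 ± 0.20, adjusted p = 0.13). BRN1, the kleisin of condensin, was above background on no array and was not tested. The differences between subunits were not tested. SMC2 and YCG1 failed without Replicate 2, without Replicate 3 and without pairing (adjusted p of at most 0.168 and 0.146), and SMC2 also on the arrays with the late sample in Cy3.

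Levels of the 2 time points did not overlap, with the late ones higher, in 18 of the 33 members, against 15.4% of all genes. These 18 comprise the 15 that passed and PDS5, CTF18 and SLI15, and they include IPL1 and CTF18, which were tested only because their late signal was high enough. By a size rule of a mean of at least 0.9 with an unadjusted p of at most 0.05, the members that were higher numbered 4 (MCD1, CSM3, CIK1 and SMC3), against 2.94% of all genes, and 0 were lower, against 4.38%.

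Related machinery was measured on the same arrays, where 14% of all genes tested were higher and 13.7% lower. Of the 14 genes of the anaphase-promoting complex, 1 was higher, MND2 (0.68 ± 0.18, adjusted p = 0.016), a subunit that restrains the complex in meiosis, and 1 lower, the core subunit CDC27 (-0.47 ± 0.23, adjusted p = 0.049), with a median of 0.06. CDC27 did not pass without a filter on dim probes or with signal at both time points required on all arrays. The same held with a dye term, on the arrays with the late sample in Cy3 and with a length correction. None of the 6 tested genes of the Smc5/6 complex, the third complex of this kind, passed in limma's test, where an unadjusted p under 0.05 was reached by 0 higher and 2 lower (median 0.02). Among the 9 other cohesion and segregation factors tested, 3 were higher and 0 lower (median 0.40, unadjusted, 6 and 0). The largest values were those of RFC3, a subunit shared by the clamp loaders (0.78 ± 0.34, adjusted p = 0.020), and ELG1, which unloads the clamp (0.54 ± 0.13, adjusted p = 0.022). For mitotic exit, 1 of 12 was lower, the kinase gene CDC15 (-0.60 ± 0.18, adjusted p = 0.021), and none was higher (median 0.04, unadjusted, 2 higher and 1 lower). Without Replicate 2 or without pairing no gene of these 4 lists passed, and without Replicate 3 only 1 did, among the other cohesion factors.

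Lists of the cell cycle waves were read beside the members and beside all genes tested, of which 14% were higher and 13.7% lower. Of the 19 tested genes of the G1/S wave under MBF and SBF, the factors that drive entry into S phase, 12 were higher and 0 lower (median 0.55, unadjusted, 16 and 0). The count of higher genes was 17 without Replicate 1, 2 without Replicate 2, 4 without Replicate 3 and 4 without pairing, and the medians of these fits lay between 0.51 and 0.56. They were led by the cyclin gene PCL1 (1.33 ± 0.54, adjusted p = 0.012) and TOS4 (1.14 ± 0.05, adjusted p = 0.0035). In the G2/M list of the CLB2 cluster, 2 of 13 were higher and 1 lower (median 0.15, unadjusted, 3 higher and 1 lower), among them BUD4, a bud site protein (0.49 ± 0.26, adjusted p = 0.049), and the cyclin gene CLB1 (-0.49 ± 0.05, adjusted p = 0.024). The count of higher genes in this list was 0 with plain background subtraction and with median centring, and 4 with a length correction. For the M/G1 list the count was 2 higher and 0 lower of 13 (median -0.11, unadjusted, 3 higher and 4 lower), with the inhibitor gene SIC1 (0.60 ± 0.18, adjusted p = 0.021) and the cyclin gene PCL9 (0.49 ± 0.06, adjusted p = 0.025). The lowest mean of this list was -0.78, and 3 of its genes were lower with a dye term and 2 with median centring. No gene of the G2/M or M/G1 list passed without Replicate 2, without Replicate 3 or without pairing. The part of the cell cycle distribution in the values of the members was not tested.

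**Figure D4:**
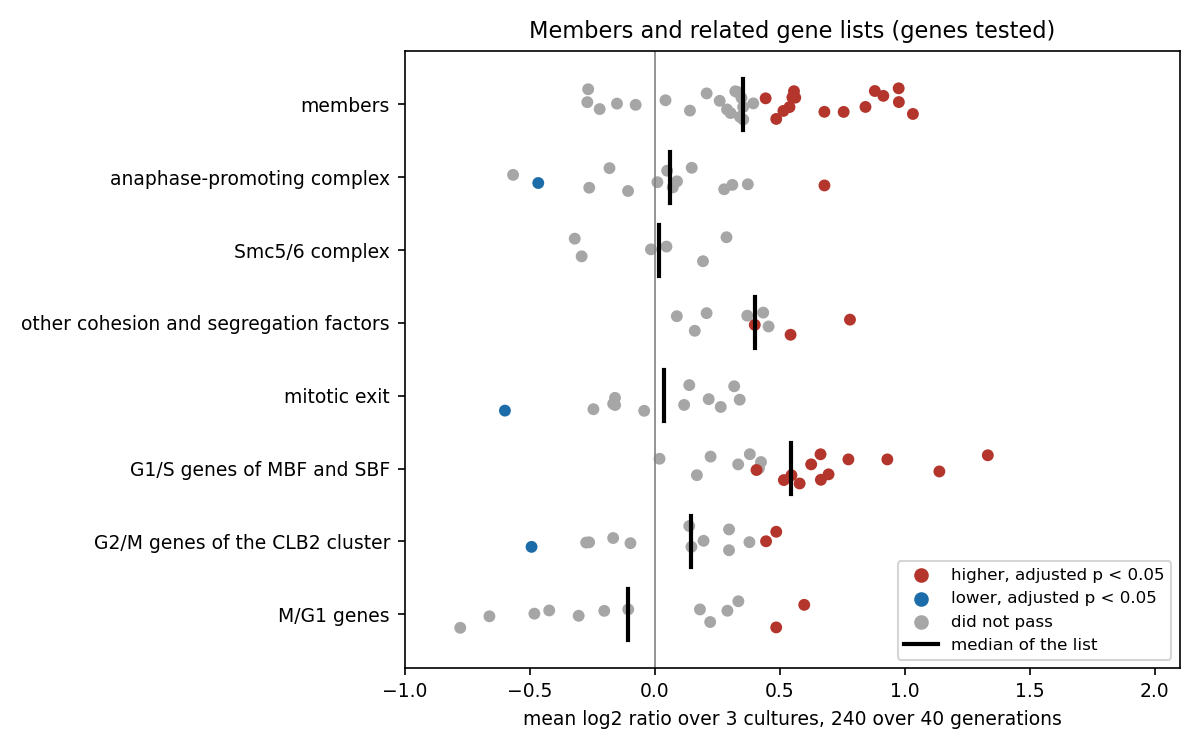
Mean log2 ratio over 3 cultures (240 over 40 generations, horizontal axis) of each gene tested, by list; red points were higher and blue points lower at an adjusted p under 0.05, black bars are medians, and vertical jitter has no meaning. The medians are 0.35 for the members, 0.55 for the G1/S list and 0.40 for the other cohesion factors, and between -0.11 and 0.15 for the other lists drawn, which leave out the mating-type and meiosis lists.

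Meiotic genes were mostly dim. Of 8 listed, 3 could be tested and none passed in limma's test (unadjusted, 1 higher and 0 lower). REC8, the meiotic kleisin that replaces MCD1 in the ring, was above background on no array at 40 generations and on 1 at 240.

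The members that were higher did not share a chromosomal region. They lie on chromosomes IV, VI, VII, IX, X, XIII, XIV, XV and XVI (RefSeq annotation of assembly R64). The 36 members together lie on 14 of the 16 chromosomes. By culture, the medians of the 16 chromosomes over all genes tested ran from -0.08 to 0.05. Around the 15 higher members the 4 nearest tested genes of each make 60 neighbours, of which 9 were higher and 12 lower; around the other 18 members, 10 of 72 were higher and 9 lower. Among all genes tested, 14% were higher and 13.7% lower. None of the 16 neighbours of the 4 ring genes was higher. Of the 15 higher members, 10 had a larger mean than each of their neighbours. The 15 were picked because they passed as higher and their neighbours were not picked by value, so this count favours the members. CIK1 lies near CLN1, a G1 cyclin gene that was also higher (0.66 ± 0.34, adjusted p = 0.032), and SGO1 lies near CDC21, the thymidylate synthase gene (0.93 ± 0.14, adjusted p = 0.0065). Both neighbours are on the G1/S list.

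**Figure D5:**
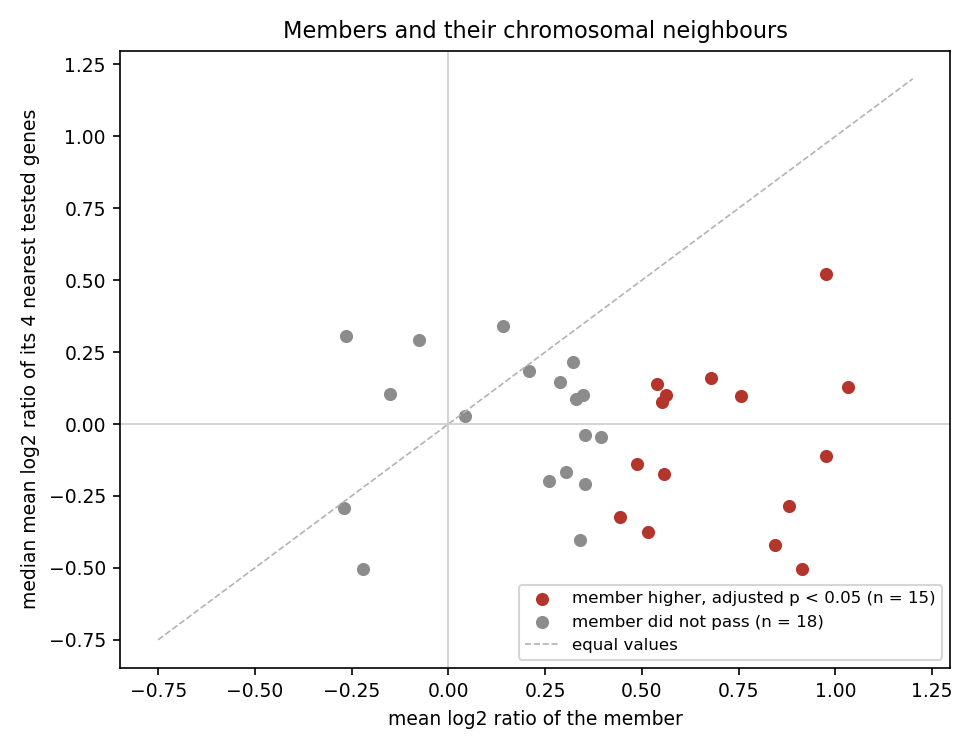
Mean log2 ratio of each member tested (horizontal axis, 240 over 40 generations) against the median of its 4 nearest tested genes on the chromosome (vertical axis). The medians of the neighbours of the 15 higher members (red) run from -0.50 to 0.52, the highest being that of CIK1.

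Members are long genes, with a median coding length of 2190 bases among those tested against 1269 for all genes with a length. Length moved with the difference between cultures: across 5347 genes its Spearman correlation with the ratio was -0.367 for Replicate 1 set against the other cultures, 0.091 for Replicate 2 and 0.432 for Replicate 3. Across the 33 members the same values were -0.186, 0.016 and 0.11, and that with the mean ratio was 0.046; these genes share arrays and are not independent. After each culture's ratios were corrected by a curve on length, all 15 members kept their calls and PDS5 (0.47) and MPS1 (0.40) passed as well. The corrected means of the ring genes were 1.02 for SMC1, 1.06 for SMC3, 1.02 for MCD1 and 0.98 for IRR1.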

How the data were processed

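The authors scanned the two-color arrays and extracted the spots with GenePix Pro; the deposited scanner values are pixel intensities of spot and local background in Cy5 and Cy3, the percent of saturated pixels, and flags, with no normalization. The log2 ratios deposited by the authors, in a matrix and in the series values, were made in Acuity and served as alternatives. Dye assignments come from the array names, and the deposited log2 ratios are positive where signal was higher at 240 generations, although their column names give 40 first.

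From the medians, background was corrected with normexp (offset 50) and dye bias with a loess curve per array, with control spots at weight 0, in R 4.3.3 with limma 3.58.1. The 2 spots of a gene and the 2 arrays of a culture were averaged, which leaves 3 replicates and pairs the time points, since both come from the same culture and array. Genes above local background by more than 2 background SDs on at least 4 arrays at a time point were tested against 0 with lmFit and eBayes, with Benjamini-Hochberg adjustment at 0.05 over all 5504 genes. Time-point levels are the separated channels after loess and between-array normalization of the mean signal (Aquantile); they are compared within a probe only. On simulated data of 3 cultures, the test found 75 of 100 genes changed 2-fold and 97 of 100 changed 4-fold, with 6 false calls. The simulated noise was drawn independently for each gene, and fewer genes were changed than were called on the arrays. These rates therefore need not hold for the arrays. The number of cultures, and with it of arrays, limits the precision. In all, 4 genes with emptied lines were left out, as was NBL1, which matched no probe.

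Every member is named, and in each other list up to 2 passing genes of largest absolute mean, besides the mating-type genes and ACT1 (0.02 ± 0.11, adjusted p = 0.91); CLN1, CDC21, VIK1 and REC8 were added for their relation to a member. The members and lists were chosen with earlier results of these data known. Promoter and protein sequences were not used here. The alternatives were other background, pixel, scaling, filter, dye, prior and pairing choices, each replicate left out, the authors' values, a length correction and a size rule.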

Additional observations from a re-analysis of the deposited data

How the results depend on the processing

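No alternative gave a member that was lower, and the 15 higher members kept a positive value in every fit in which they were tested. Their number was between 13 and 18 in all settings but these: without pairing of the time points (no replicate block) it was 5, leaving out 1 replicate gave 4 to 17, and the size rule gave 4. The median of the members, 0.35, was 0.53 with plain background subtraction and 0.59 with the authors' log2 ratios and with the series values. MCD1 (adjusted p 0.000355 to 0.0365), CSM3 (0.00052 to 0.0417) and CIK1 (0.000494 to 0.0431) passed in all 19 alternatives with a fit, and SMC1, SMC3 and IRR1 in 18. SMC2 was lost most often, in 4. Over all genes, median centring changed the 769 higher and 754 lower calls to 650 and 997. MAD2 passed in 8 alternatives, the deposited ratios among them, but not in the analysis reported. ECO1 and KAR3 also passed with the authors' log2 ratios and with the series values only. PDS5 passed with plain background subtraction, with a trended and robust prior and with the length correction. MPS1 passed without a filter on dim probes, with a dye term, without Replicate 1 and with the length correction. SCC2, MRC1 and BRN1 stayed at the limit set by their signal over background, and SGO1 and IPL1 left the test when signal at both time points was required on all arrays.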
